A study of Homo sapiens with 6 samples.

Results

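DHRS2 and 7 other genes of the DHRS group (DHRS3, DHRS4, DHRS7, DHRS7B, DHRS9, DHRS11 and DHRS13) were followed by RNA sequencing in PC-3, a line of human prostate cancer cells. The genes were taken by symbol, and all 8 were among the 18780 gene rows of the deposited table. DHRS2 was picked because it had one of the largest falls in the comparison below, and its relatives were taken with the same results known, so the differences of these 8 genes are given as a description and without p-values. The 3 tested libraries came from cells given trans-Gnetin H (TGH), built of linked units of resveratrol, a polyphenol of plants, at 2.5 µM over 24 h, and the 3 control libraries from cells that received only dimethyl sulfoxide (DMSO), the solvent. All cells were grown in DMEM/F12 with fetal bovine serum. By its title the study asks about glucose deprivation of advanced prostate cancer cells by this compound. Everything was measured in 1 cell line at 1 dose and 1 time. The labels do not say whether replicates were separate cultures, so the errors measure only the spread between these libraries, which may be technical.

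DHRS proteins belong to the short-chain dehydrogenases/reductases (SDR), a large enzyme family that moves hydride between NAD(H) or NADP(H) and alcohol or carbonyl groups. Their substrates include retinoids, steroids, lipid intermediates and reactive carbonyl compounds. In retinoid metabolism, reductases of this family return retinal to retinol, and dehydrogenases act in the direction of retinoic acid. In prostate tissue, related enzymes interconvert active and inactive androgens. DHRS2, first described as HEP27, reduces dicarbonyl compounds and has been reported to bind the ubiquitin ligase MDM2.

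The start regions of DHRS2, DHRS4 and DHRS7B are shown as examples, chosen after their values were seen: DHRS2 was called lower with TGH, and DHRS4 and DHRS7B were called higher. DHRS2 and DHRS4 lie in the same stretch of chromosome 14, and DHRS7B lies on chromosome 17. Each window holds 250 bases before and 50 bases after an annotated RefSeq transcript start, is read 5′ to 3′ on the gene's own strand, and comes from build GRCh38.p14, whereas the expression table was made on hg19. Capitals mark CpG dinucleotides and the letters TATAAA. DHRS2 is at chr14:23629865-23630164, DHRS4 at chr14:23953520-23953819 and the first window of DHRS7B at chr17:21126714-21127013, all on the plus strand.
DHRS2: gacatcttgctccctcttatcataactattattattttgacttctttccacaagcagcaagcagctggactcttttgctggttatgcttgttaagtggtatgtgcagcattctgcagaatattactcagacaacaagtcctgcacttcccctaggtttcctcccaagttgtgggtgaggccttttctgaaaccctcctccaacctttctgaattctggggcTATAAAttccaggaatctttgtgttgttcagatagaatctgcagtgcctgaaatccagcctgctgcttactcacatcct
DHRS4: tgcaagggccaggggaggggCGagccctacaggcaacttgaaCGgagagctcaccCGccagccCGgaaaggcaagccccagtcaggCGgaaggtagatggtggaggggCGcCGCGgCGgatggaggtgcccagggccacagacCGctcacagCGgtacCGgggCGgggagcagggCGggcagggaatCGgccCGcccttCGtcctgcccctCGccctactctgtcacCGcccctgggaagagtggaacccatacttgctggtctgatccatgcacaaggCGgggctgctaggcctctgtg
DHRS7B: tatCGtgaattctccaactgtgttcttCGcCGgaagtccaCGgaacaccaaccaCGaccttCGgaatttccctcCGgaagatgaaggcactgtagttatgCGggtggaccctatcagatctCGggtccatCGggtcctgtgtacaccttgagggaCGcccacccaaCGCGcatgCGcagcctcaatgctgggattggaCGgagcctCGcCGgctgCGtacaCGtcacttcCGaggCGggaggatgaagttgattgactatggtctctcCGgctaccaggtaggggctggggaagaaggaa

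The DHRS2 window holds 0 CpG dinucleotides, as do 3.96% of all 35116 RefSeq windows, whose median is 14. The DHRS4 window holds 20 and the DHRS7B window 22, but window 2 of DHRS7B holds 6. DHRS11 and DHRS3, which were not called, have 36 in the window of DHRS11 and 5 to 31 in those of DHRS3. The window of DHRS13 holds 27. DHRS2 has the letters TATAAA once, with their first base 29 bases before the start, and 11.5% of all windows hold TATAAA on either strand. DHRS4 and DHRS7B do not have it in these windows. DHRS9, which was under the filter of 1 TPM and higher with TGH, has TATAAA in 3 of its 4 windows and 0 to 4 CpG in each. In window 2 of DHRS9 the match is on the opposite strand only. DHRS4 has the GC box GGGCGG 4 times, counted on both strands, and so does DHRS11. GGGCGG occurs in 45% of all windows and contains a CpG, so the 2 counts overlap. Also searched on both strands were the E-box CACGTG (7.26% of all windows), the amino acid response element core TGATGNAA (3.62%) and the endoplasmic reticulum stress element (0.0769%). None of these 3 motifs was in any of the 13 windows of the 7 genes with an entry. These matches describe letters in a window and were not linked to the expression values.

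The deposited values are log2(TPM + 1), where TPM scales reads by transcript length and library total, so levels may be compared between genes. The deposited values sum to 507945 to 518870 TPM in the TGH libraries and 502380 to 509407 TPM in the DMSO libraries, so the rows used here do not make up a full TPM total, and each level and the filter of 1 TPM are on the deposited scale. TPM does not keep the number of reads, and depth is therefore unknown. Genes at exactly 0 numbered 1342 to 1498 in the TGH libraries, against 3074 and 3185 in DMSO replicates 1 and 2 and 1530 in DMSO replicate 3, so 2 controls detected fewer low genes. None of the 8 genes was at 0 in any library. Markers fitted an epithelial line: KRT8 was at 423 to 426 TPM with TGH and 594 to 620 TPM in DMSO. Of 7 epithelial markers 5 were called lower, where 26.3% of all genes tested were. Their summed level was 1736 to 1758 TPM with TGH and 2090 to 2178 TPM in DMSO, and the part of this shift in the results below was not tested. Luminal prostate markers (6 in the table) summed to 26.8 to 27.8 TPM with TGH and 35.3 to 38.2 TPM in DMSO, and 4 basal markers to 11.4 to 12.1 TPM with TGH and 8.95 to 11.1 TPM in DMSO. The 7 fibroblast markers summed to at most 3.84 TPM with TGH and 4.86 TPM in DMSO, and the 6 immune and 4 endothelial markers to under 1 TPM per library.

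Cells given TGH had much less DHRS2 mRNA. DHRS2 had 1.08, 1.46 and 1.18 TPM in TGH replicates 1 to 3, against 7.09, 6.01 and 6.59 TPM in DMSO replicates 1 to 3. The groups were far apart, with the highest TGH library well under the lowest DMSO library. The mean was 1.24 ± 0.2 TPM with TGH and 6.56 ± 0.539 TPM in DMSO (SD, n = 3 each), and the DMSO mean was 5.29 times the TGH mean. On the log2(TPM + 1) scale the difference, TGH minus DMSO, was -1.76 (SE 0.086, limma). The added 1 shrinks the change of a gene as low as this, and the difference was -2.32 with a pseudocount of 0.1 and -0.89 with a pseudocount of 5. With DMSO replicate 3 as the only control it was -1.76. In bulk RNA, fewer cells with the transcript and less of it per cell cannot be told apart.

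The fall changed the place of DHRS2 among expressed genes. Of the 12018 genes kept (mean over libraries 1 TPM or more), 1.6% to 4.62% lay below DHRS2 in the TGH libraries and 33.3% to 38.0% in the DMSO libraries. Among the 8 DHRS genes it ranked 7 with TGH, above DHRS9 alone, and 5 in DMSO, above DHRS11. The 0.258% of all genes tested that were called lower by at least 2-fold on the log2(TPM + 1) scale, 31 in number, included DHRS2, which was picked from among them, and 0.94% were called higher by as much.

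**Figure D1:**
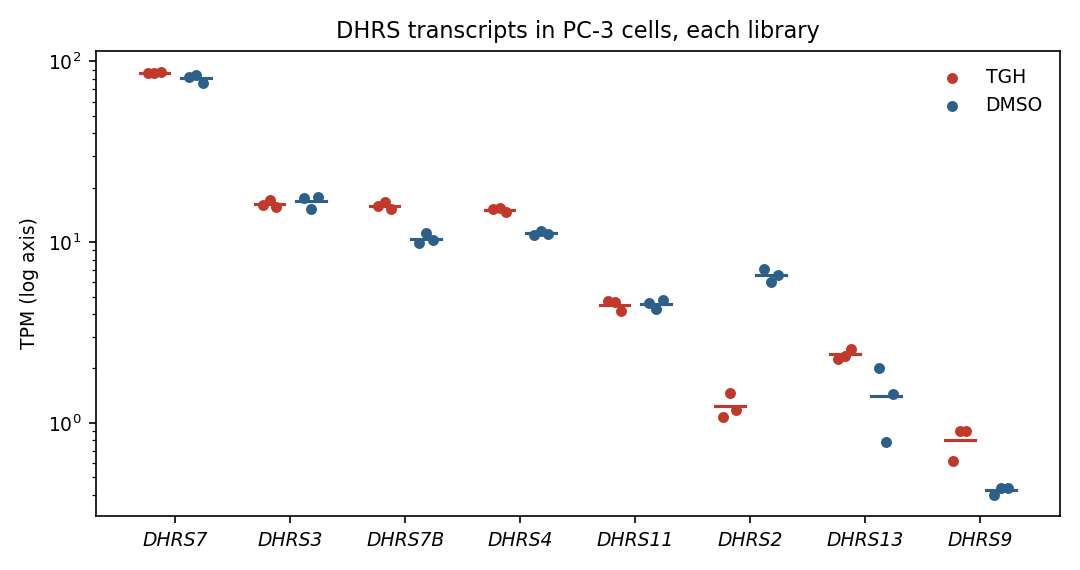
TPM of the 8 DHRS genes (log axis) in each library, TGH in red left of DMSO in blue, with the group means as bars (n = 3 each). DHRS2 drops below 1.5 TPM in all TGH libraries, while DHRS7 stays the most abundant in both groups.

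Against this, DHRS4 and DHRS7B were higher with TGH. Of the 7 DHRS genes that were kept, 3 were called higher, 1 was called lower and 3 were not called (limma, Benjamini-Hochberg over all 12018 genes tested, call at an adjusted p under 0.05). Of all genes tested 28.9% were called higher and 26.3% lower, 55.2% in all, so such calls were common in this comparison, and nothing is read from the count of DHRS genes. The libraries of the groups did not overlap in 5 of these 7, 4 with TGH above DMSO and 1 below, where 33.6% of all genes tested had TGH above and 30.8% below, 64.4% in all. The median difference of the 7 was 0.10, against 0.02 for all genes tested.

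DHRS4, an NADPH-dependent reductase of retinal and other carbonyl compounds in peroxisomes, had 15.3, 15.4 and 14.6 TPM in TGH replicates 1 to 3, against 11.0, 11.5 and 11.1 TPM in DMSO replicates 1 to 3. All TGH libraries were above all DMSO libraries. The difference was 0.40 on the log2(TPM + 1) scale (SE 0.037), and the TPM ratio of TGH to DMSO was 1.35. DHRS3 reduces all-trans-retinal to retinol and restrains retinoic acid formation. Its values were 16.04, 17.1 and 15.6 TPM with TGH, against 17.5, 15.2 and 17.8 TPM in DMSO, so the groups overlapped. DHRS3 was not called, with a difference of -0.05 (SE 0.066).

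DHRS9, which oxidises retinol and hydroxysteroids, was the lowest of the 8 and fell under the filter of 1 TPM. It had 0.615, 0.903 and 0.896 TPM with TGH, against 0.399, 0.438 and 0.434 TPM in DMSO. The lowest TGH library was above the highest DMSO library. In a fit without the filter the difference was 0.34 (SE 0.071), called higher. A level this low rests on few reads, and how many is not known.

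DHRS7B makes a step of ether lipid synthesis, the reduction of acyl-dihydroxyacetone phosphate, and is known in mice as PexRAP. It had 15.9, 16.6 and 15.3 TPM with TGH, against 9.86, 11.2 and 10.3 TPM in DMSO. The groups did not overlap, and the mean was 15.9 ± 0.685 TPM with TGH and 10.5 ± 0.699 TPM in DMSO (SD, n = 3 each). Its difference of 0.56 (SE 0.055) was the highest of the 8 on the log2(TPM + 1) scale, which shrinks low genes. By the ratio of TPM means DHRS7B was at 1.52, DHRS9 at 1.9 and DHRS13 at 1.69. In TGH cells its range overlapped those of DHRS3 and DHRS4, while in DMSO cells it overlapped DHRS4 and both were below DHRS3.

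DHRS7, an enzyme of the endoplasmic reticulum membrane that reduces steroid, retinoid and other carbonyl substrates, was by far the most abundant of the 8 transcripts. It had 86.2, 85.9 and 87.5 TPM with TGH, against 81.5, 84.2 and 75.8 TPM in DMSO. Although the groups did not overlap, the gap was small next to the spread in DMSO, and DHRS7 was not called at 0.10 (SE 0.040). It was called without DMSO replicate 2 (0.14) and against DMSO replicate 3 alone (0.19), which takes the spread from the TGH libraries, and also after quantile normalization (0.13). It was smaller and not called without DMSO replicate 3 (0.06) and with median scaling (0.07). PCNXL4 (PCNX4 in GENCODE 29) overlaps DHRS7 on the opposite strand and had 23.4 ± 0.402 TPM with TGH and 19.9 ± 0.477 TPM in DMSO (SD, n = 3 each). The library kit kept the strand, but whether the counting used it is not given in the sources used here, so reads of overlapping antisense pairs may not be told apart.

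DHRS11, a cytosolic enzyme with activity on steroids, hardly differed in the mean. It had 4.72, 4.64 and 4.15 TPM with TGH, against 4.62, 4.28 and 4.77 TPM in DMSO, and the groups overlapped throughout. Its difference was -0.01 (SE 0.062) and it was not called, with 0.03 without TGH replicate 3 and 0.01 without DMSO replicate 3. DHRS13, a little studied member, had 2.25, 2.35 and 2.57 TPM with TGH, against 2.0, 0.787 and 1.45 TPM in DMSO. Its DMSO libraries spread widely, with replicate 2 lowest, and all lay below the TGH libraries. DHRS13 was called higher at 0.52 (SE 0.181), but the call was lost without TGH replicate 1 (0.55), TGH replicate 2 (0.53), TGH replicate 3 (0.48) or DMSO replicate 3 (0.55), without the filter, with a pseudocount of 0.1 and in 3 further settings. Its size hung on the DMSO libraries, at 0.32 without DMSO replicate 2 and 0.69 without DMSO replicate 1. GENCODE 29 also lists an antisense transcript over DHRS13.

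Summed over the 8 genes, the level was 142 to 144 TPM with TGH and 128 to 134 TPM in DMSO. DHRS7 made up 59.5% to 61.7% of that sum with TGH and 59.1% to 63.0% in DMSO. DHRS2 made up 0.761% to 1.01% with TGH and 4.5% to 5.29% in DMSO. Set against DHRS4 alone, DHRS2 stood at 0.0708 to 0.0948 of its TPM with TGH and at 0.524 to 0.645 in DMSO.

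**Figure D2:**
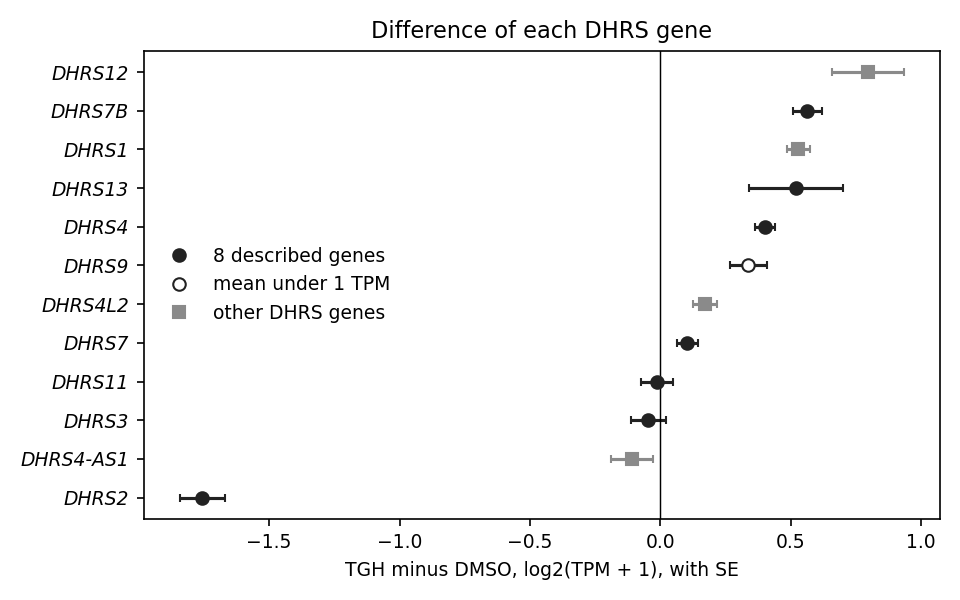
Differences of DHRS genes, TGH minus DMSO on the log2(TPM + 1) scale, with their SE from limma (3 libraries a group). DHRS4L1, at most 0.0734 TPM in any library, is not drawn. The open circle is DHRS9, below the filter of 1 TPM, and grey squares are DHRS genes other than the 8. DHRS2 at -1.76 stands apart at the low end, and DHRS7B at 0.56 is the highest of the 8 on this scale.

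Of 7 other listed genes named for DHRS, 5 were in the table and 4 had at least 1 TPM, of which 3 were called higher and 0 lower. Of all genes tested 28.9% were called higher and 26.3% lower, and nothing is read from a count over so few genes. DHRS1, a reductase of the endoplasmic reticulum, had 18.8, 18.7 and 17.9 TPM with TGH, against 12.5, 13.1 and 11.9 TPM in DMSO, and rose by 0.53 (SE 0.044, limma adjusted p = 0.00012). DHRS12 had 3.72, 2.93 and 2.95 TPM with TGH, against 1.7, 0.992 and 1.61 TPM in DMSO, and rose by 0.80 (SE 0.137, limma adjusted p = 0.00289). In both genes the groups did not overlap. DHRS4L2, a near-identical copy of DHRS4, was at 5.19 ± 0.203 TPM with TGH and 4.49 ± 0.108 TPM in DMSO (SD, n = 3 each), a difference of 0.17 (limma adjusted p = 0.018). That call was lost without TGH replicate 2 (0.15, adjusted p = 0.0685), against DMSO replicate 3 alone (0.15, adjusted p = 0.103), with the replicate number as a block (0.17, adjusted p = 0.0539) and after quantile normalization (0.09, adjusted p = 0.16). Reads of DHRS4, DHRS4L2 and the pseudogene DHRS4L1 may be split between the copies, so the levels of DHRS4 and DHRS4L2 are uncertain. DHRS4L1 was listed at 0 in all DMSO libraries and was at most 0.0734 TPM with TGH.

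The neighbours of DHRS2 on its chromosome were looked at as well. DHRS2, DHRS4-AS1, DHRS4, DHRS4L2 and DHRS4L1 follow each other in that order among the listed genes of chromosome 14. DHRS4-AS1, which overlaps DHRS4 on the opposite strand, had 4.74 ± 0.609 TPM with TGH and 5.17 ± 0.182 TPM in DMSO (SD, n = 3 each) and was not called (-0.11, limma adjusted p = 0.291). Of the 13 listed neighbours with at least 1 TPM, the DHRS genes among them, 4 were called higher and 2 lower. Of all genes tested 28.9% were called higher and 26.3% lower, so nothing is read from this count. The median difference of the neighbours was 0.02, against 0.02 for all genes tested. PCK2, the mitochondrial phosphoenolpyruvate carboxykinase, had 14.5, 13.9 and 14.3 TPM with TGH, against 6.24, 5.53 and 5.92 TPM in DMSO, and rose by 1.14 (SE 0.048, limma adjusted p = 8.7e-06). AP1G2, a clathrin adaptor subunit, rose by 0.29 (limma adjusted p = 0.0108). IRF9, a factor of interferon signalling, fell by 0.30 (limma adjusted p = 0.0177), and the call did not hold without TGH replicate 1 (-0.29, limma adjusted p = 0.0602) or TGH replicate 3 (-0.26, limma adjusted p = 0.0652). The gene next to DHRS2 on its other side, JPH4, was at most 0.0221 TPM with TGH and 0.00257 TPM in DMSO.

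**Figure D3:**
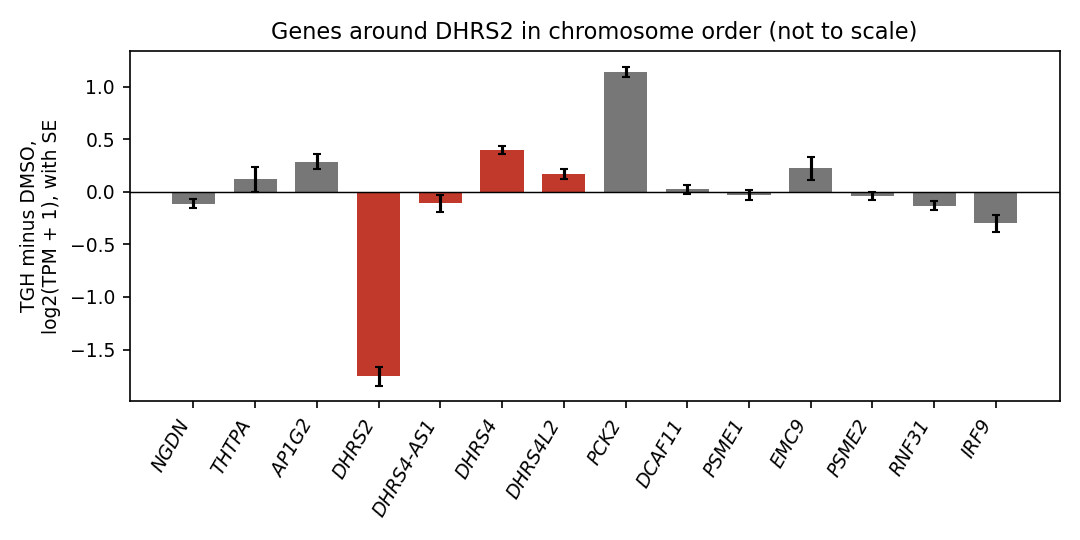
Differences (TGH minus DMSO, log2(TPM + 1), bars with SE from limma, 3 libraries a group) of DHRS2 and of the listed neighbours with at least 1 TPM, in chromosome order and not to scale. DHRS genes are red. DHRS2 at -1.76 is the lowest, DHRS4-AS1 (-0.11) and DHRS4 (0.40) follow it, and PCK2 at 1.14 is the highest.

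Within the wider SDR family, no other listed member was as low as DHRS2. Of 44 further SDR genes with at least 1 TPM, 17 were called higher and 9 lower, where 28.9% of all genes tested were higher and 26.3% lower. Their median difference was 0.07, against 0.02 for all genes tested, and their differences ran from -0.52 to 1.38. HSD17B14, which oxidises hydroxysteroids in the cytosol, had the highest, with 13.2, 14.3 and 13.6 TPM with TGH, against 4.21, 5.37 and 4.36 TPM in DMSO (1.38, SE 0.082, limma adjusted p = 3e-05). HSD17B7, an enzyme of cholesterol synthesis, rose by 0.50 (limma adjusted p = 5.9e-05). HSD17B10, a mitochondrial dehydrogenase, fell by 0.33 (limma adjusted p = 0.00025), and HSDL2, a peroxisomal member, fell by 0.40 (limma adjusted p = 0.00028). Calls in both directions were common among all genes tested, so nothing is read from the counts of this family. The lists share genes, among them RDH11, HSD17B10, HSD17B4 and DCXR, so this count and those below are not independent.

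**Figure D4:**
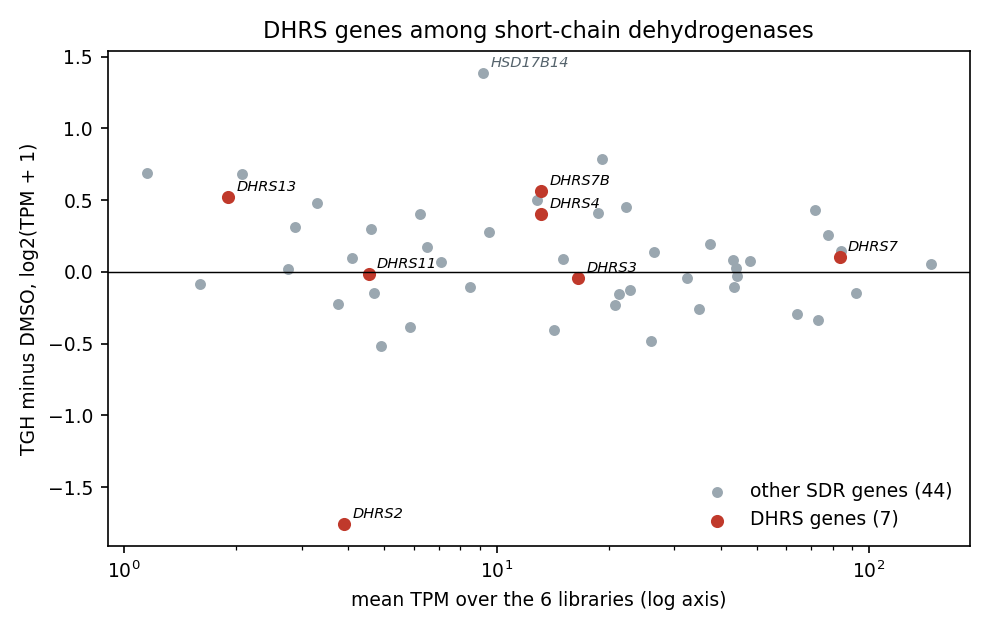
Difference (TGH minus DMSO, log2(TPM + 1)) against mean TPM over the 6 libraries (log axis) for 7 DHRS genes in red and 44 other SDR genes in grey. DHRS2 lies at -1.76, below the lowest grey point at -0.52, and HSD17B14 at 1.38 is the highest point.

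Of 16 retinoid genes outside the DHRS group with at least 1 TPM, 8 were called lower and 2 higher, where 26.3% of all genes tested were lower and 28.9% higher, with a median difference of -0.19 against 0.02 for all genes tested. CRABP2, which carries retinoic acid to its nuclear receptors, had 119 ± 1.85 TPM with TGH and 194 ± 5.09 TPM in DMSO (SD, n = 3 each) and fell by 0.70 (limma adjusted p = 5.1e-06). ALDH1A3, which makes retinoic acid from retinal, had 560 ± 3.99 TPM with TGH and 701 ± 2.99 TPM in DMSO (SD, n = 3 each) and fell by 0.32 (limma adjusted p = 9.1e-06). RDH11, a retinal reductase, fell by 0.29 (limma adjusted p = 0.00041). DGAT1, which can esterify retinol besides making triglyceride, rose by 0.42 (limma adjusted p = 0.00014). RXRB, a retinoid X receptor, was the other one called higher (limma adjusted p = 0.0495), and in 9 other settings only 1 gene of the list was. Among the 8 DHRS genes, DHRS3, DHRS4 and DHRS7, whose substrates include retinoids, had -0.05, 0.40 and 0.10 on the same scale. DHRS9, which oxidises retinol, had 0.34 in the fit without the filter.

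**Figure D5:**
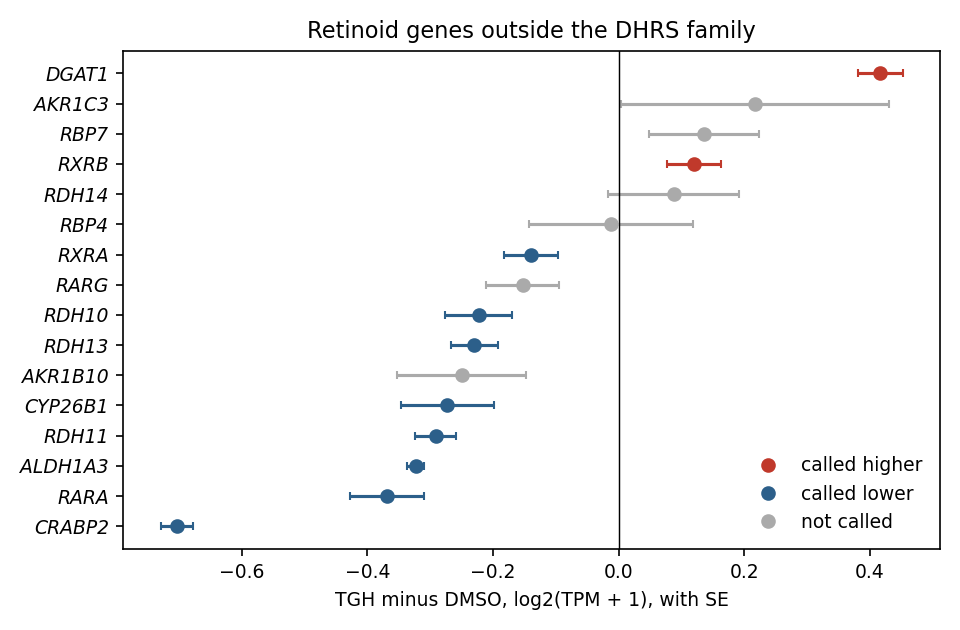
Differences (TGH minus DMSO, log2(TPM + 1), with SE from limma, 3 libraries a group) of 16 retinoid genes outside the DHRS group with at least 1 TPM. Blue points were called lower, red points higher and grey points not called. CRABP2 at -0.70 is the lowest.

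Of 10 ether lipid genes other than DHRS7B with at least 1 TPM, 5 were called lower and 2 higher, where 26.3% of all genes tested were lower and 28.9% higher, with a median difference of -0.17 against 0.02 for all genes tested. AGPS, which forms the ether bond, had 10.5 ± 0.189 TPM with TGH and 13.4 ± 0.605 TPM in DMSO (SD, n = 3 each) and fell by 0.32 (limma adjusted p = 0.00078). EPT1, an ethanolamine phosphotransferase, fell by 0.31 (limma adjusted p = 0.00081). FAR1, which supplies fatty alcohols, fell by 0.20 (limma adjusted p = 0.00345), and CHPT1, a choline phosphotransferase, by 0.24 (limma adjusted p = 0.00535). The 2 called higher were PEX7 at 0.33 (limma adjusted p = 0.0201) and CEPT1 at 0.14 (limma adjusted p = 0.00979). Nothing is read from a count over so few genes. In peroxisome import and beta-oxidation, the compartment of DHRS4, 6 of 23 genes were called higher and 6 lower, with a median difference of 0.08. CAT, catalase, fell by 0.64 (limma adjusted p = 1.4e-05), and the transporter ABCD3 fell by 0.29 (limma adjusted p = 0.00073). PEX10, an import factor, rose by 0.30 (limma adjusted p = 0.00049). Without TGH replicate 1 the higher genes numbered 2, and without TGH replicate 3 or DMSO replicate 3 they numbered 3.

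A further list held genes of carbonyl reduction, the activity shared by DHRS2 and DHRS4, and other enzymes that act on carbonyl compounds. Of 18 with at least 1 TPM, 4 were called higher and 5 lower, with a median of -0.02. Of all genes tested 28.9% were called higher and 26.3% lower, so nothing is read from this count. GLO1, which detoxifies the dicarbonyl methylglyoxal, fell by 0.46 (limma adjusted p = 2.1e-05), and the quinone reductase NQO1 fell by 0.47 (limma adjusted p = 7.2e-05). PTGR1, a reductase of prostaglandins and unsaturated aldehydes, rose by 0.39 (limma adjusted p = 9.4e-05). DCXR, a dicarbonyl and xylulose reductase of the SDR family, rose by 0.43 (limma adjusted p = 0.00036). Of 10 genes of steroid reduction and oxidation 1 was called higher and 1 lower, beside the same shares of all genes. The other 8 missed the threshold, and the median was -0.02. The lower one was HSD17B10, given above, and the higher one was HSD17B4 at 0.14 (limma adjusted p = 0.0378), a call lost in 9 other settings, among them without any 1 of TGH replicates 1 to 3, DMSO replicate 2 or DMSO replicate 3.

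Of 4 genes listed with DHRS2 for its reported binding of MDM2, CDKN1A, the cell cycle inhibitor p21, rose by 0.95 (limma adjusted p = 2e-05) and MYC fell by 0.18 (limma adjusted p = 0.00189). MDM2 had 6.24 ± 0.271 TPM with TGH and 6.95 ± 0.303 TPM in DMSO (SD, n = 3 each) and was not called (-0.14, limma adjusted p = 0.0546), though it was called without DMSO replicate 3 (-0.17, adjusted p = 0.0417) and in 3 other settings, with adjusted p from 0.0107 to 0.0449. MDM4 was not called at 0.09 (limma adjusted p = 0.275), and its difference was -0.03 after quantile normalization. MYB, at 0.692 to 0.794 TPM with TGH and 0.699 to 1.53 TPM in DMSO, had no test at the filter of 1 TPM.

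The genes whose pattern over the 6 libraries was most like that of DHRS2, by the root mean square difference of centred log2(TPM + 1) values, were ARRDC4 (0.196), KIF20A (0.212), DMBT1 (0.225), GCSHP3 (0.240), PLK1 (0.276) and RRM2 (0.285). Each was lower in all TGH libraries than in all DMSO libraries, which the measure favours because it compares the size of the change. ARRDC4, an arrestin-like protein, was lower than DHRS2 in both groups, at 0.602 ± 0.0735 TPM with TGH and 3.32 ± 0.186 TPM in DMSO (SD, n = 3 each). DMBT1, a secreted scavenger receptor protein, had 0.962 ± 0.130 TPM with TGH and 4.05 ± 0.206 TPM in DMSO (SD, n = 3 each). GCSHP3 is a pseudogene whose reads may be shared with its parent gene, and KIF20A, PLK1 and RRM2 act in cell division and DNA synthesis.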

How the data were processed

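RNA sequencing of 6 PC-3 libraries, 3 TGH and 3 DMSO, was used. The authors deposited log2(TPM + 1) values, 18780 gene symbols by 6 libraries, with the offset read from a smallest value of exactly 0. Per the labels' protocols, ribosomal RNA was depleted and the kit kept the strand. Reads were placed on hg19 (per the submitters' processing notes). Not given in the sources used here are the aligner, quantifier, annotation and filters. A mean of 1 TPM or more was required (12018 genes kept), and groups were compared with limma 3.58.1 in R 4.3.3 (variance trend, two-sided, Benjamini-Hochberg, call at an adjusted p under 0.05). The fit was tested on simulated data. Gene symbols were set against RefSeq GRCh38.p14 and GENCODE 29, and figures were drawn with matplotlib 3.10.9.

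The members, lists and tests were chosen with earlier results of these data known. Named are the 8 members, the other DHRS genes, up to 4 genes per list with the smallest p, and the 6 genes most like DHRS2. Genes named outside this rule, after their values were seen, are RXRB, JPH4, PCNXL4, MYB, PEX7, CEPT1 and the marker KRT8. Some genes are not reported here. The alternatives tried were other pseudocounts (0.1 and 5), other filters (none and 5 TPM), quantile normalization, median scaling, no variance trend, DMSO replicate 3 as the only control, a replicate block and leaving out each library.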

Additional observations from a re-analysis of the deposited data

How the results depend on the processing

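DHRS2 kept its direction and its call in every alternative that kept the gene, between -2.32 with a pseudocount of 0.1 and -0.89 with a pseudocount of 5, and between -1.83 and -1.71 when 1 library was left out. A filter at a mean of 5 TPM drops DHRS2, DHRS9, DHRS11 and DHRS13, and of the members left 0 were called lower. DHRS4 (0.31 to 0.43) and DHRS7B (0.44 to 0.61) stayed called in all alternatives. All alternatives refit the same libraries in which these genes were picked, so they describe only the dependence on processing. Between 2 and 4 of the members tested were called higher, with DHRS9 tested only without a filter. In the main fit 28.9% of all genes tested were called higher and 26.3% lower. Of 47 genes named with alternatives, 37 kept direction and side in all, 4 lost a call in at least 1, 4 gained one, and 2 that were not called (DHRS11 and MDM4) changed sign. No called gene reversed. Quantile normalization set the median difference of all genes at -0.03, against 0.02. Whether same-numbered libraries form pairs cannot be settled from these values. Their deviations from the group means correlated at 0.00877, 0.0544 and 0.228 for replicates 1, 2 and 3. TGH replicate 1 correlated best with DMSO replicate 2 (0.0956), while TGH replicates 2 and 3 correlated best with the DMSO library of the same number. With the replicate block 3273 genes were called higher and 2958 lower, against 3479 and 3156 without it, and DHRS2 had -1.76. Depth is not known, which limits DHRS9, DHRS13 and DHRS2 with TGH most.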
